A study of Caenorhabditis elegans with 2 samples.

Results

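The X promoter peaks described here are the reproducible chromatin immunoprecipitation peaks of NHR-102 on the X chromosome of Caenorhabditis elegans whose summit lay near the start of a protein-coding gene. A summit counted when it stood between -1000 bp and 200 bp of a protein-coding 5' end, negative values being upstream, and more than 200 bp from every tRNA gene. Of the 2796 reproducible peaks of the genome, 225 met this rule. X held 581 reproducible peaks in all, and 247 of them had a summit in a promoter window before the tRNA rule left out 22. The position rule used no measured value. The peaks of X outside promoters (246) and the promoter peaks of the autosomes (1226) are given beside them where a value differs, both also more than 200 bp from tRNA genes.

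Whole hermaphrodites of strain OP463 (unc-119(tm4063) III; wgIs463) were collected as L4 larvae, 50 h after synchronization by starvation at the L1 stage. The strain carries the unc-119(tm4063) allele and an insertion, wgIs463, that expresses NHR-102 with a C-terminal GFP-FLAG tag, a single transgenic line, and DNA was precipitated with an antibody against GFP. Both samples were biological replicates of this 1 group, with no second stage, genotype or treatment. The antibody field of the labels names nhr-102 itself, while the sample description names the tag.

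Whole animals mix all tissues, so a peak cannot be assigned to a cell type. A strain without the tag was not analysed here, and how much of a peak's signal came from NHR-102 itself was not tested. The reproducible list was derived by the authors from both replicates and their pool with the irreproducible discovery rate (IDR), which keeps peaks that rank alike in replicates. The signal of a peak is the authors' value for that list, with no stated scale, so it is compared among peaks of the same list and never between lists. The depth behind each peak is unknown. Intervals given below are exact 95% (Clopper-Pearson) intervals, and they cover counting error only. They count windows and summits as independent, although some of these overlap, so they can be too narrow.

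NHR-102 belongs to the nuclear hormone receptors, a family of ligand-binding transcription factors that is greatly expanded in C. elegans. In hermaphrodites the dosage compensation complex, brought to the X chromosomes by SDC-2, lowers their transcription. The complex loads at recruitment sites on X that share a sequence called the MEX motif. In this species many mature transcripts begin with a spliced leader, so transcription may begin upstream of the 5' end that the annotation gives.

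The MEX core, the letters CGCGCAGG or CCTGCGCG on the other strand, stood within 100 bp of the summit in 5 X promoter peaks. For the 4 of them whose window was outside annotated untranslated regions, 201 bp of the plus strand centred on the summit are printed, because the 2 strongest X promoter peaks are among them. The letters are from the RefSeq assembly WBcel235, whose sequence is that of ce11, and run from 5' to 3'. Capitals mark the MEX core.
nspc-17 (chrX:14525791-14525991): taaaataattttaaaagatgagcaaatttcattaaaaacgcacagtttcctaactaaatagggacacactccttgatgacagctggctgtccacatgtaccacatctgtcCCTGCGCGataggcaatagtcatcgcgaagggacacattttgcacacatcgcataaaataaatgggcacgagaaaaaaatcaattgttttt
ins-39 (chrX:1344950-1345150): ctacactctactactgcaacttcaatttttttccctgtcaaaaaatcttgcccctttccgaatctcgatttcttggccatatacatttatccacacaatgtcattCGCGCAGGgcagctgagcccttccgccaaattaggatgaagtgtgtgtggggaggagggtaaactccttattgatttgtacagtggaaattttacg
K07E3.2 (chrX:8103930-8104130): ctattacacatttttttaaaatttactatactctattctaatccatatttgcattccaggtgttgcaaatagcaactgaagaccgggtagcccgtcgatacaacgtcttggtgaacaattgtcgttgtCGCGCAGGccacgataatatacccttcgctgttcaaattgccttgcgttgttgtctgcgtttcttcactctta
gcc-1 (chrX:3159621-3159821): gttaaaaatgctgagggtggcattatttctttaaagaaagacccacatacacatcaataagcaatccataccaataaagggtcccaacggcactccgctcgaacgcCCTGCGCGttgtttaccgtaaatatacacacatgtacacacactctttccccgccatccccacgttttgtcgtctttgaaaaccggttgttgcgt

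The next 6 X promoter peaks by signal had no MEX core, and 101 bp around each summit are shown in the same way to set them beside those above. Capitals here mark a GATA site, TGATAA, in the 1 window of 101 bp that had one. The peaks of tatn-1 and puf-9 also had TGATAA within 100 bp of the summit, but outside the 101 bp shown. No window of these 6 held the MEX core. The CACGTG counted below for F18H3.4, and the TATAAA and CCGCCC of tatn-1, likewise lay outside the 101 bp shown.
serp-1.1 (chrX:15841228-15841328): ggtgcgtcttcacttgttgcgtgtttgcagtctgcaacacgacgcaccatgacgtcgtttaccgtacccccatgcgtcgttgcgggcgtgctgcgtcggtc
epn-1 (chrX:14818933-14819033): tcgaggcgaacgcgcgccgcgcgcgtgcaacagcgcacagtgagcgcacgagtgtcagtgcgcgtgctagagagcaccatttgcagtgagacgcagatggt
tatn-1 (chrX:14790651-14790751): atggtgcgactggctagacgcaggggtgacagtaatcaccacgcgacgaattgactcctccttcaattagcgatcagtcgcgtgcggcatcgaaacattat
puf-9 (chrX:5841250-5841350): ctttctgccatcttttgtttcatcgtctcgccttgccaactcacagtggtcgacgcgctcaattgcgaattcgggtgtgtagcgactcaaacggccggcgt
ftt-2 (chrX:11605878-11605978): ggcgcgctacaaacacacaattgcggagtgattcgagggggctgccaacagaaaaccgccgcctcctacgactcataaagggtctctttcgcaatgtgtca
F18H3.4 (chrX:13528675-13528775): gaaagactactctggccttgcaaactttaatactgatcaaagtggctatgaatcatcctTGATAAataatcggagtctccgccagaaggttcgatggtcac

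The strongest X promoter peak stood upstream of nspc-17, a member of a nematode-specific peptide family. Its signal was 2006 in the reproducible list, where it ranked 8, and 1072 and 945 in the lists of replicates 1 and 2, where it ranked 7 and 9. The upstream region of ins-39, an insulin-like peptide gene, came next with a signal of 1362, and with 743 and 627 in the replicates' own lists. In both peaks the MEX core lay close to the summit, 14 bp from it at nspc-17 and 9 bp at ins-39, and both summits were far from the annotated 5' end, at -710 and -629 bp.

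The other 3 peaks with the MEX core had signals of 200 or less, against a median of 133 over all X promoter peaks. The peak shared by R04E5.9 and cnnm-2 had a signal of 200 and rank 796, and its summit stood in a 5' untranslated region. The K07E3.2 peak had a signal of 148 with its MEX core 32 bp from the summit at -268 bp, and it ranked 1337 and 1833 in the replicates. The gcc-1 peak had a signal of 99.4 with the core at 10 bp and the summit at -219 bp, and it ranked 2615 and 4032 in the replicates. Peaks with a MEX core near the summit thus ran from 99.4 to 2006 in signal.

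As a share, 5 of 225 X promoter peaks had the MEX core (2.22%, interval 0.725 to 5.11%). Among X peaks outside promoters it was 14 of 246 (5.69%, 3.15 to 9.36%), with a median signal of 1565, and 10 of these 14 were among the 279 strongest of the whole list. Autosomal promoter peaks had it in 2 of 1226 windows (0.163%, 0.0198 to 0.588%). Over all 2796 reproducible peaks the share was 0.823%. For sequence background, windows of the same length were centred -241 bp from each of the 4114 distinct protein-coding 5' ends of X, the median position of the X promoter peaks. These had the core in 5 cases (0.122%, interval 0.0395 to 0.283%), and 3 of those 5 windows belonged to genes with an X promoter peak. The share was thus higher in X promoter peaks than in these windows, with intervals that did not overlap, while the intervals of X peaks inside and outside promoters overlapped.

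**Figure D1:**
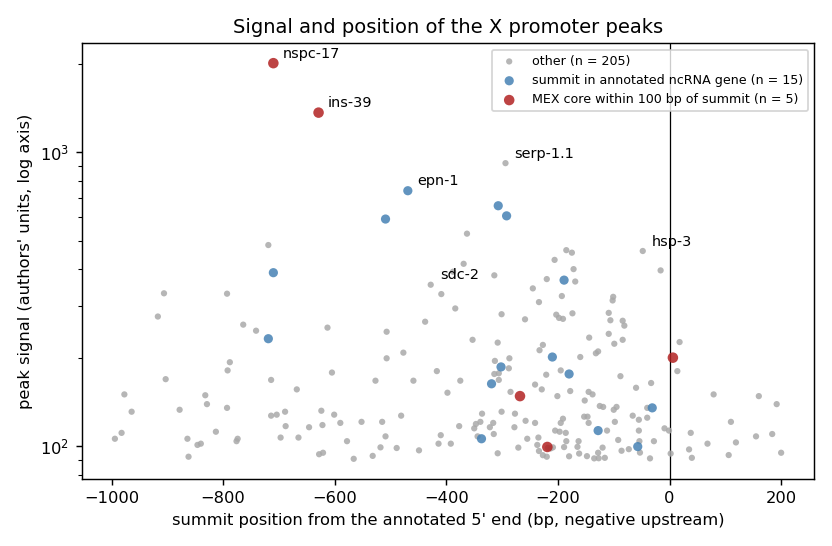
Each point is 1 of the 225 X promoter peaks, plotted by summit position from the annotated 5' end (bp, negative upstream) and by signal (authors' units, log axis). Red points have the MEX core within 100 bp of the summit, blue points have the summit in an annotated noncoding RNA gene and no MEX core, and grey points have neither. The 2 highest points, nspc-17 at -710 bp and ins-39 at -629 bp, are red, and 4 of the 5 next highest, between -509 and -292 bp, are blue.

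Without the 5 peaks that had the MEX core, the highest signal among X promoter peaks was 917. Over all 225 the signal ran from 90.6 to 2006 with a median of 133. The median was 148 in X peaks outside promoters (90.6 to 2297) and 144 in autosomal promoter peaks (90.7 to 1849), with 143 over the whole list. Of the 100 strongest peaks of the genome, 7 were X promoter peaks (3.11% of the 225, interval 1.26 to 6.30%), against 22 X peaks outside promoters (8.94%, 5.69 to 13.2%) and 39 autosomal promoter peaks (3.18%, 2.27 to 4.32%). Among the 279 strongest of the list, the shares came closer, with 11.1% of X promoter peaks, 13.8% of X peaks outside promoters and 10.4% of autosomal promoter peaks.

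After nspc-17 and ins-39, the third peak was that of serp-1.1, with a signal of 917, summit at -294 bp, and 456 and 462 in the replicates. The fourth, at -469 bp from epn-1, which encodes the endocytic adaptor epsin, had a signal of 739, with 420 and 323 in the replicates. Next came tatn-1, the tyrosine aminotransferase that begins tyrosine breakdown, with 657 at -307 bp and replicate values of 350 and 314. The Pumilio-family RNA-binding gene puf-9 followed with 607 at -292 bp and 337 and 275. The gene ftt-2, which encodes a 14-3-3 adaptor protein, had 592 at -509 bp, with 313 and 279. These were the 7 X promoter peaks among the 100 strongest, and all 7 were between -710 and -292 bp.

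Of the peaks that followed, that of hsp-3, a chaperone gene of the endoplasmic reticulum, had a signal of 461 at -48 bp, with 197 and 259 in the replicates. The alpha-mannosidase family gene mans-3 had 455, and 1 summit in the windows of both ile-2, a lectin-type cargo receptor, and trap-2, a subunit of the translocon-associated complex, had 430 (206 and 230). The exocyst subunit gene sec-3 had 400 (211 and 190).

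Others of the 25 strongest X promoter peaks belonged to genes of varied function. The ABC transporter gene mrp-3 had a signal of 483 (260 and 231 in the replicates), pkhm-2 464, and rpl-11.2 of the large ribosomal subunit 417 (213 and 204). The heparan sulfate sulfotransferase gene hst-2 had 396 at -16 bp (227 and 170), the receptor gene nhr-35 392 at -388 bp (210 and 190), and nipi-3, a Tribbles-family pseudokinase of innate immunity, 381 (219 and 169). A poly(A)-binding protein gene, pab-2, had 370 (201 and 181), and a second summit of ftt-2 at -710 bp had 389 (220 and 132). The remaining ones were F18H3.4 (528), T13C5.6 (367), C14A11.9 (363) and F17E5.2 (344). The weakest of the 25 was at ain-1, which encodes a partner of the microRNA-guided Argonaute proteins, with 331 at -906 bp (143 and 191).

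The gene sdc-2, whose product brings the dosage compensation complex to X, was itself among the 25. The summit at -428 bp from its 5' end had a signal of 354, and 165 and 188 in the replicates, with ranks of 309 and 216. It had no MEX core within 100 bp. Of the 6 genes on X listed for sex determination and X dosage, 1 had an X promoter peak, sdc-2 (16.7%, interval 0.421 to 64.1%). The share of all protein-coding genes of X was 8.31%, within that interval. In the authors' full pooled list of 30000 rows, which holds background as well as peaks and whose summits and signals the reproducible list carries over, sdc-1 had its strongest promoter summit at 76.5 (rank 3587), the X signal element ceh-39 at 59.3 and the X signal element fox-1 at 28.2. These 3 values were below 90.6, the lowest signal of an X promoter peak, and xol-1 and sex-1 had no promoter summit in that list away from tRNA genes. With sdc-2, 4 of the 6 had a promoter summit there, against 31.1% of all protein-coding genes of X.

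Most X promoter peaks were among the strong ones in each replicate's own list. The IDR selection used these same replicates, so a high share follows largely from how the list was made. The 2796 strongest peaks of both replicates covered the summits of 152 of 225 (67.6%, interval 61.0 to 73.6%), against 66.7% of X peaks outside promoters, 70.4% of autosomal promoter peaks and 70.0% of all reproducible peaks. Replicate 1 alone covered 42, replicate 2 alone 25, and neither covered 6. In the full lists, 224 of the 225 summits were covered in both. The exception was the stronger of the summits at bet-2, a bromodomain protein gene (signal 245), which no row of replicate 2 covered. The X promoter genes found from replicate 1 alone numbered 224, of which 194 were genes of X promoter peaks (85.5% of those genes and 86.6% of the replicate's own). From replicate 2 alone there were 218, of which 180 were shared (79.3% of the genes of X promoter peaks and 82.6% of the replicate's own).

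**Figure D2:**
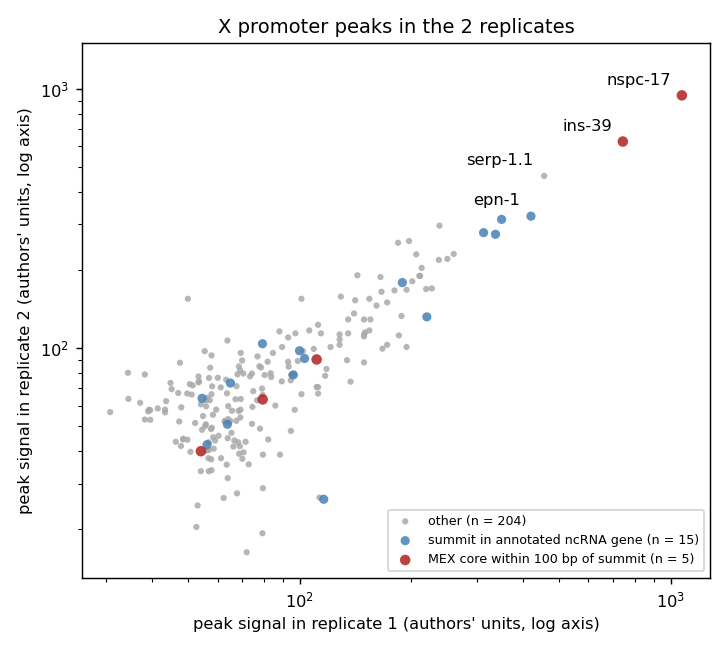
Signal of each X promoter peak in the list of replicate 1 (x axis) and of replicate 2 (y axis), authors' units, both axes logarithmic. The 224 points are the peaks covered in both lists, coloured as in the plot of signal by position. The strong peaks lie close to a line, with nspc-17 at 1072 and 945, while below about 100 in either list the cloud widens.

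The replicate signals of the X promoter peaks ran from 30.8 to 1072 in replicate 1 (median 71.4, n = 225) and from 16.3 to 945 in replicate 2 (median 71.2, n = 224). Where several rows of a replicate's list covered a summit, its signal and rank were taken from the row with the nearest summit, while the coverage counts above took any of the 2796 strongest rows. The larger of a peak's 2 ranks was 1.45 times the smaller at the median, against 1.47 over all reproducible peaks matched in both lists, and it exceeded 10 times for 4 of 224 X promoter peaks and for 35 of 2737 reproducible peaks. The largest ratio was 12.7, at C18B12.4, with ranks of 668 and 8498 in replicates 1 and 2 (signals 116 and 26.1), although another row of replicate 2, among its 2796 strongest, also covered that summit. The weaker summit of ins-39, with a signal of 102, ranked 719 and 8268 and was likewise covered by a stronger row of replicate 2. The ivns-1 summit ranked 1605 and 17926 and was not covered by one of the 2796 strongest rows there. The opposite order was widest at the weaker summit of sem-5, an adaptor of growth factor signalling, which ranked 3022 and 324. The row of replicate 2 that covered it also covered the stronger sem-5 summit, so a signal of 155 in replicate 2 stands for both summits. A stronger row of replicate 1 covered the weaker sem-5 summit too. Single rows of replicate 1 likewise stand for both summits at bet-2 (149), lpr-6 (79.5) and aak-2 (63.9). Such values were counted once for each summit. After sem-5 in this order came the next 2 summits. These were C24H10.2 (5622 and 1206) and utx-1, a histone demethylase gene (4721 and 1237). None of the 6 summits named for their rank ratios had a signal over 163 in the reproducible list.

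The median X promoter summit lay at -241 bp from the 5' end, farther upstream than the median of autosomal promoter peaks at -180 bp. Each position is from the nearest 5' end, so a summit in windows of several genes takes the shortest distance. Windows of 2 or more genes held 28.6% of autosomal and 8.44% of X promoter summits. How much this shaped the difference in position was not tested. The first 200 bp upstream held 75 of 225 (33.3%, interval 27.2 to 39.9%), against 501 of 1226 on the autosomes (40.9%, 38.1 to 43.7%). The bases from 401 to 1000 upstream held 68 (30.2%, 24.3 to 36.7%), against 22.8% (20.5 to 25.3%). From 201 to 400 bp upstream there were 65 (28.9%, 23.1 to 35.3%, against 23.1%, 20.8 to 25.5%), and downstream of the 5' end 17 (7.56%, 4.46 to 11.8%, against 13.2%, 11.4 to 15.2%). In each of these 4 classes the intervals of X and autosomal promoter peaks overlapped. Peaks downstream of the 5' end were also weak, with a median signal of 110 and a highest of 226, while the class from 201 to 400 bp upstream had a median of 153 and a highest of 917.

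**Figure D3:**
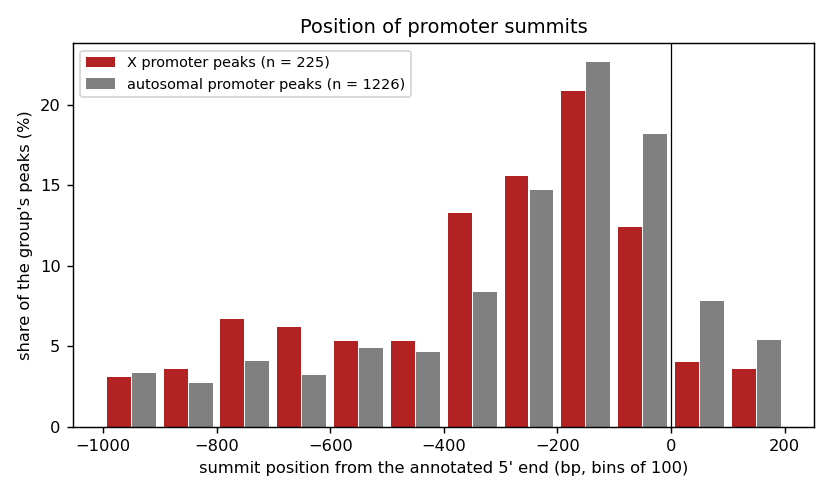
Share of promoter summits (%, bars from 0) in bins of 100 bp from the annotated 5' end, negative upstream, for the 225 X promoter peaks (red) and the 1226 autosomal promoter peaks (grey). The tallest bin of both is -200 to -100 bp (20.9% and 22.7%), while -400 to -300 bp holds 13.3% of X promoter peaks and 8.40% of autosomal ones. Positions are from the nearest 5' end, and more autosomal than X summits lie in windows of several genes, where the shortest distance is taken.

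Few X promoter peaks were shared between neighbouring genes. A summit stood in the windows of 2 or more genes in 19 cases (8.44%, interval 5.16 to 12.9%), against 351 of 1226 on the autosomes (28.6%, 26.1 to 31.2%). Between divergent genes there were 13 (5.78%) on X and 298 (24.3%) on the autosomes. The windows themselves overlapped less on X, where 4.49% of window bases lay in windows of 2 or more genes, against 11.3% on the autosomes. Among the shared ones on X were ile-2 with trap-2, nmat-1, an enzyme of NAD synthesis, with ucr-2.1 (signal 241), and 1 summit in the windows of D1005.10, D1005.4 and dhs-25 (230). The other 206 peaks each stood in the window of 1 gene.

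Some genes had more than 1 peak. The 225 peaks stood in the windows of 227 genes, of which 14 had 2 and 2 had 3, namely zfp-3 (281, 152 and 128) and H40L08.3 (139 at the strongest and 108 at the weakest). Of the 225, 14 had exactly the same interval as another X promoter peak, so that the summits fell in 218 distinct intervals. Distinct intervals could still overlap. They did so for 2 peaks each at zfp-3, H40L08.3, sem-5, nhr-35, cytb-5.1, lpr-6, aak-2 and C25B8.8, whose summits are therefore not independent either. The paired summits were 199 to 211 bp apart in all of the intervals that were exactly the same. At ftt-2 the signals were 592 and 389, at tatn-1 657 and 313, at epn-1 739 and 156, at nspc-17 2006 and 276, and at ins-39 1362 and 102. At bet-2 they were 245 and 131, and at ain-1 331 and 128. Summits of such a pair lie in the same interval and are not independent.

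By annotation, 164 of the X promoter summits were intergenic (72.9%), 20 in introns, 16 in noncoding RNA genes, 11 in 5' untranslated regions, 8 in coding exons and 6 in 3' untranslated regions. The intergenic peaks had a median signal of 148. The medians in introns, coding exons, 5' and 3' untranslated regions were 121, 113, 110 and 106, and no summit of those classes was among the 279 strongest peaks of the genome.

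The 16 X promoter summits in noncoding RNA genes included several of the strongest. Their median signal was 193 (99.4 to 739), against 131 for the other 209 X promoter peaks, and 6 of the 16 were among those 279 strongest. On the autosomes the medians were 163 for 58 such promoter peaks and 143 for the other 1168. Their share was 7.11% on X (interval 4.12 to 11.3%), against 4.73% of autosomal promoter peaks (3.61 to 6.07%). The windows also held more such sequence on X, with 1.72% of window bases in noncoding RNA genes outside protein-coding transcripts, against 0.585% on the autosomes. These RNA genes were short. T04C10.8, upstream of epn-1, is 139 bp long, F42D1.13 at tatn-1 147 bp, F52D10.7 and F52D10.9 at ftt-2 137 and 149 bp, and C14F11.14 at T13C5.6 147 bp. At puf-9 the summit lay in both W06B11.7 and W06B11.9, which overlap on opposite strands and are 181 and 177 bp long. The annotation used gives them a position and a class but no function. Farther down the list were summits in D2021.5 at sdha-1 (signal 201), DL2.2 at dnj-14 and glit-1 (176), and M163.19 at his-24 (135).

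The B box, an internal promoter element of tRNA genes, was searched as GTTCNANNC after the values were seen. It was within 100 bp of the summit in 2 of these 16 peaks (12.5%), against 187 of the 232 reproducible peaks within 200 bp of a tRNA gene (80.6%). Over all X promoter peaks 18 of 225 had it, against 7.19% of the windows at all X 5' ends.

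The DNA at X promoter peaks was rich in G and C compared with other upstream sequence of X. The 201 bp around the summit had 44.3% ± 7.77 GC (mean ± SD over 225 peaks). Peaks of X outside promoters had 41.1% ± 8.17 (n = 246), autosomal promoter peaks 41.2% ± 7.30 (n = 1226) and the windows at all X 5' ends 35.9% ± 7.25 (n = 4114). Shares of letter motifs depend on this composition, and no adjustment for it was made.

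Each motif was searched on both strands within 100 bp of the summit, and windows may hold several. The E-box CACGTG, bound by basic helix-loop-helix proteins, was in 23 X promoter peaks (10.2%, interval 6.59 to 14.9%), against 15.4% of X peaks outside promoters, 8.65% of autosomal promoter peaks and 3.11% of the windows at all X 5' ends (2.60 to 3.69%). The strongest with it were F18H3.4 (528), mans-3 (455), mdl-1, itself a gene of the helix-loop-helix family (322), W07E11.1 (294) and epg-7, an autophagy gene (271). The GATA site TGATAA was in 66 (29.3%, 23.5 to 35.8%), against 35.8%, 23.8% and 21.6% in the same order of comparison. The repeat GAGAGAGA was in 17 (7.56%, 4.46 to 11.8%), against 8.13%, 8.08% and 2.72%.

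The remaining motifs were counted in the same way. The cyclic AMP response element TGACGTCA was in 8 X promoter peaks (3.56%, interval 1.55 to 6.89%), against 1.22%, 1.96% and 0.754% in X peaks outside promoters, autosomal promoter peaks and all X 5' ends. They included the window of dhs-25 (230), ttr-37 (180) and fah-1, the last enzyme of tyrosine breakdown (162). The core hexamer of nuclear receptor sites, AGGTCA, was in 12 X promoter peaks (5.33%, 2.79 to 9.13%), against 4.47%, 5.63% and 6.03%. The GC box CCGCCC was in 18 of 225, against 5.69%, 11.1% and 4.55%. TATAAA was in 39 (17.3%, 12.6 to 22.9%), against 16.3%, 19.9% and 23.8%, and its interval overlapped that of all X 5' ends (22.5 to 25.1%). The run TTTTTTTT was in 25 (11.1%), against 13.0% of X peaks outside promoters and 23.7% of all X 5' ends, where GC content was also lower, and the intervals of X promoter peaks and of all X 5' ends did not overlap.

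**Figure D4:**
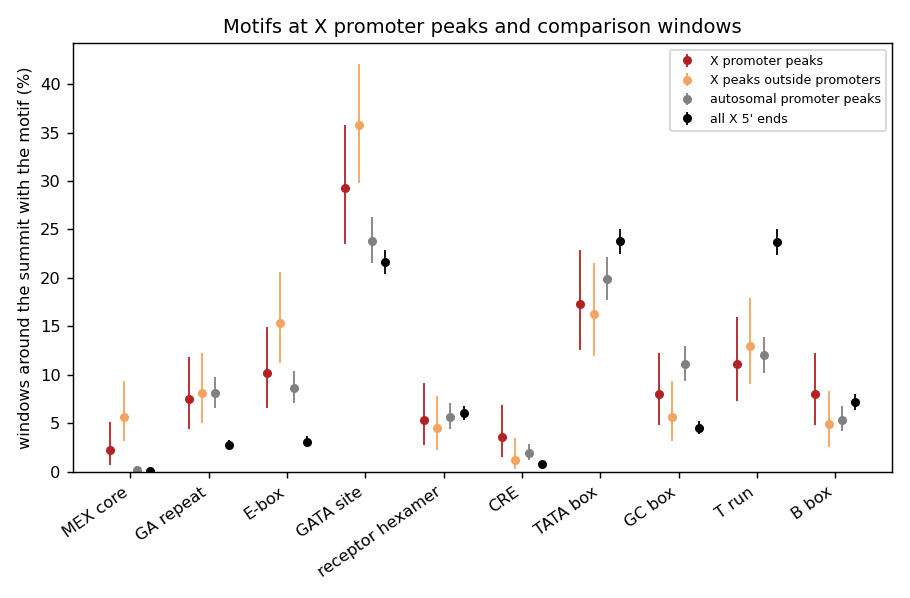
Share of 201 bp windows with each motif (%, points, with exact 95% intervals) in X promoter peaks, X peaks outside promoters, autosomal promoter peaks and windows at all X 5' ends. The MEX core, GA repeat, E-box, GATA site and CRE (cyclic AMP response element) points of X promoter peaks lie above those of all X 5' ends with intervals apart, and the receptor hexamer has overlapping intervals in all 4 groups. For the GATA site the gap is narrow (lower end 23.5% against upper end 22.9%), and windows at neighbouring 5' ends can overlap.

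Of the 2731 protein-coding genes of X, 227 had an X promoter peak (8.31%), against 1497 of 17242 autosomal genes with a promoter peak (8.68%). Along X the share was 7.46% of 871 genes in the left part, 8.19% of 977 in the middle and 9.29% of 883 in the right, each part being of equal length. The gene lists that follow were read against the 8.31%, with their members on X as the denominator. They were chosen with earlier results of these data known, and no list was tested. Each was drawn up from gene names and name patterns, so it can leave out genes of the same function. In the pooled list with background, 849 of the 2731 genes had a promoter summit (31.1%), and counts from that list were read against this share. Together, the 21 lists held 38 of the 227 genes.

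Of the 21 lists, that of transcription factor genes outside the homeobox and nuclear receptor families held the most genes with an X promoter peak, 8 of 36 on X (22.2%, interval 10.1 to 39.2%). The Ets-domain gene ets-4 had the strongest signal, 284 at -109 bp (129 and 158 in the replicates). It was followed by atf-6, a membrane-bound stress factor gene (225), the intestinal GATA factor elt-2 (208 at -477 bp, 88.1 and 116 in the replicates) and sma-9, a zinc-finger cofactor of body size signalling (139). The stress regulator atf-4 had 126, hlh-13 116, the forkhead gene fkh-9 107 and the heterochronic regulator lin-14, which times larval fates, 104. The gene lin-14 was also the 1 of 3 heterochronic genes on X with a peak, and none of the 3 had one with the list of replicate 2 alone.

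Nuclear hormone receptor genes, the family of NHR-102 itself, had an X promoter peak in 4 of 27 cases (14.8%, interval 4.19 to 33.7%). Beside the stronger nhr-35 summit (392) there was a second one of 99.3 at -189 bp, in an interval that overlapped the first. The others were nhr-1 (121 at -339 bp), nhr-120 (111 at -982 bp) and nhr-48 (93.9 at -628 bp). With the list of replicate 1 alone 2 of the 27 had one, and likewise 2 with a window of 500 bp upstream. In the pooled list with background, 16 of the 27 had a promoter summit, against the 31.1% of all X genes, the strongest of the additional ones being nhr-71 with 84.9 (rank 3047).

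Homeobox genes had no X promoter peak in 26 cases (interval up to 13.2%), neuropeptide genes none in 32 (up to 10.9%), cuticle collagen genes none in 30 (up to 11.6%) and vitellogenin genes none in 5. With the list of replicate 2 alone the counts were 2 homeobox genes, 1 neuropeptide gene and 1 vitellogenin gene. In the pooled list with background, 8 of the 26 homeobox genes had a promoter summit, near the 31.1% of all X genes, the strongest being ceh-60 at 89.5 (rank 2832), just below the 90.6 of the lowest X promoter peak. The highest there were flp-28 at 58.4 for neuropeptides, col-9 at 45.9 for collagens and vit-2 at 72.5 for the yolk proteins. Neuronal and synaptic genes had a peak in 1 of 45 cases (2.22%, interval 0.0562 to 11.8%), the touch receptor channel gene mec-10 (120 at -241 bp).

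All 3 genes on X in the list of the mitochondrial respiratory chain had a peak (100%, interval 29.2 to 100%). Genes of the chain outside the list were not counted. The complex III core subunit gene ucr-2.2 had 273 at -198 bp (154 and 117 in the replicates), its relative ucr-2.1 241 at -277 bp in a window shared with nmat-1 (128 and 113), and sdha-1, the flavoprotein subunit of succinate dehydrogenase, 201 at -210 bp (99.8 and 97.7).

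Detoxification enzymes and transporters had a peak in 7 of 47 cases (14.9%, interval 6.20 to 28.3%). After mrp-3 (483) came dhs-25, a short-chain dehydrogenase gene (230), gst-42, a glutathione S-transferase gene with the summit 18 bp downstream of the 5' end (226), and mrp-5, an ABC transporter gene known for heme export (199). The remaining 3, ugt-50, mrp-2 and dhs-28, were between 94.4 and 113. Of 8 genes of fatty acid breakdown and propionate handling, only pccb-1, the gene of a propionyl-CoA carboxylase subunit, had a peak (127), and 7 of the 8 had a promoter summit in the pooled list with background, against the 31.1% of all X genes.

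In signalling lists, ins-39 (1362), sma-9 (139) and the kinase gene akt-2 of the insulin pathway (107) made 3 of 10 genes of dauer, insulin and TGF-beta signalling. Their summits lay at -629, -829 and -665 bp, so the count was 0 with a window of 500 bp upstream. In the pooled list with background, 3 more of the 10 had a promoter summit, 6 in all against the 31.1% of all X genes, the strongest being daf-3, a Smad of the dauer pathway, at 85.7. Of 16 growth factor, Wnt and matrix genes only sem-5 had a peak (253 at -613 bp), and none did with the window of 500 bp upstream. Of 9 muscle and cytoskeleton genes it was unc-115, an actin-binding protein gene (127, and 2 genes with the list of replicate 1 alone). Of 4 listed RNA-binding genes it was puf-9, and of 2 ribosomal protein genes rpl-11.2. The RNA-binding list did not include pab-2, named above.

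The remaining lists were short. Chaperones had a peak in 2 of 5 cases, hsp-3 (461) and dnj-14 (176). Vacuolar ATPase and lysosome genes had 2 of 7, the cathepsin B-like gene cpr-6 (150) and vha-20 (103), with 4 of 7 from the list of replicate 1 alone and 1 of 7 with the window of 500 bp upstream. Chromatin and histone genes had 2 of 13, the linker histone genes his-24 (135) and hil-3 (91.3), and 1 with the list of replicate 1 alone. Intestine markers had 2 of 3, elt-2 (208) and the peptide transporter gene pept-1 (96.5), of which 1 was left with the list of replicate 2 alone.

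**Figure D5:**
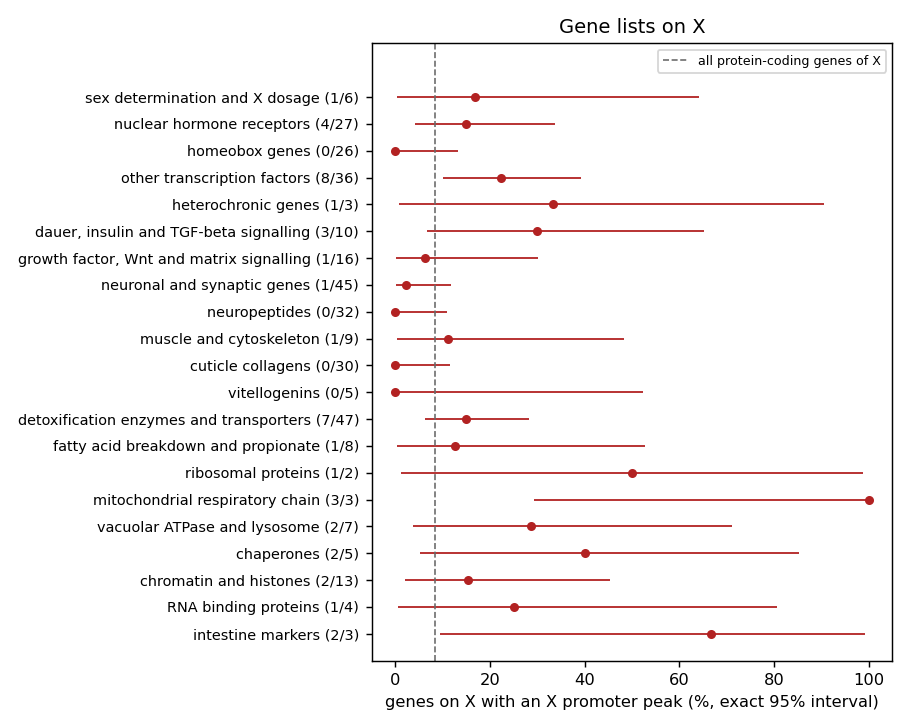
Share of the genes of each list on X with an X promoter peak (%, points, with exact 95% intervals), with the numbers beside each list's name and a dashed line at 8.31%, the share of all protein-coding genes of X. Only the intervals of other transcription factors, the respiratory chain and intestine markers lie wholly above the line, and those of homeobox, neuropeptide and collagen genes reach across it from 0. The respiratory chain and intestine lists hold 3 genes each, and elt-2 is in the transcription factor and intestine lists. No allowance was made for reading 21 lists side by side, so an interval above the line is a description and no test.

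The members at the edges of the rule show what the cutoffs decided. Just inside the upstream edge stood srxa-8 at -994 bp (signal 106) and nhr-120 at -982 bp (111). Just outside it stood a far stronger peak, -1004 bp from fbxb-58, with a signal of 1428 and rank 28 and no MEX core near its summit, and one at -1019 bp from vav-1 (90.7). The gene fbxb-58 kept a weaker X promoter summit at -793 bp (330), in an interval 712 bp wide. It lay close to the excluded summit, so the 2 may not be independent. At the downstream edge, H40L08.3 at 192 bp (139) and ccdc-149 at 200 bp were inside, and suox-1 at 270 bp and C55B6.1 at 331 bp (114) outside. For the tRNA rule, the nearest members kept were C29F7.2, 758 bp from a tRNA gene (91.0), and gfi-3 at 1479 bp (234). Left out were C04C11.25 at 155 bp (92.2) and ZK1193.2 at 126 bp (530), which would have ranked among the strongest X promoter peaks.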

How the data were processed

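ChIP-seq peak lists of 2 biological replicates, 1 group, were analysed. Peak signal is the authors' own value in the deposited lists. Per the deposited notes, the same control was used for both replicates and the reproducible list was made from the replicate and pooled lists by IDR. The replicate and pooled lists each held 30000 rows. Sources used here do not name the aligner, peak caller, IDR threshold or signal scale. Lists in build ce10 were not used.

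Summits were placed against protein-coding 5' ends of Ensembl release 115 (WBcel235, the sequence of ce11). A summit counted for every gene whose window held it, and its position is from the nearest 5' end. A replicate covered a peak when one of its 2796 strongest rows held the summit. With 1 group, no test was made. Python 3.11.15, scipy 1.17.1 and matplotlib 3.10.9 were used. On simulated data, 1000 of 1000 positions planted around single 5' ends of X were recovered. So were 200 of 200 MEX cores planted in random sequence of A and T. This checked the code only, and did not cover overlapping windows, the tRNA rule or motif background.

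The peaks, gene lists and motifs were chosen with earlier results of these data known. Named genes were those of the 25 strongest X promoter peaks, up to 4 per list by signal, peaks with the MEX core, the 3 widest rank ratios each way, peaks at the edges and genes with 3 peaks. Others were named after their values were seen, as were the B box and the nearest-summit alternative.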

Additional observations from a re-analysis of the deposited data

How the results depend on the processing

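Of 39 recomputed values of the main results, 33 counted as kept, with a wide allowance for counts. The 225 peaks at 227 genes became 162 at 168 with the window from 500 bp upstream to 100 bp downstream. With the window from 2000 bp upstream they became 270 at 286, and these changes counted as kept. Among the 1398 strongest peaks of the list there were 104 X promoter peaks at 108 genes, and 99.0% of these peaks were among the strongest of both replicates; fewer peaks are left there by construction. Matching intervals by 50% overlap gave 56.0% in both replicates (67.6% by covered summits), and the nearest replicate summit, chosen after seeing the data, gave 65.8%. A window from 500 bp upstream of the 5' end, with 100 bp downstream, put 46.3% of its peaks in the first 200 bp upstream, and that of 2000 bp upstream put 18.9% of its peaks in shared windows, as its size sets. From the list of 1 replicate alone there were 220 to 224 X promoter peaks at 218 to 224 genes. Of 126 recomputed gene-list counts, 97 kept, 10 moved up and 19 moved down, and the cause was not tested. The 50 recomputed ranks of the 25 strongest were their ranks in the 2 replicates' own lists, of which 36 kept and 14 moved to a weaker rank. The allowance was wide where the 2 replicate ranks differed, so kept does not mean a stable rank. The ain-1 rank of 279 counted as kept at 207 and 444, while the ins-39 rank counted as moved from 29 to 30. No paired analysis was possible because both replicates belong to 1 group. Depth is unknown, so no limit of detection can be given for genes without a peak.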
